A study of Mus musculus with 2 samples.

Results

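Heme and iron handling was followed in cells of the mouse rib repair callus through 9 genes, out of 31054 features counted: Hmox1, Blvrb, Slc48a1, Cd163, Slc40a1, Slc11a1, Fth1, Ftl1 and Tfrc. The genes were taken by name, and raw UMIs (unique molecular identifiers, each standing for 1 captured transcript) of each were summed by cell class in both deposited matrices. Cells came from calluses dissected 4 days after a large-scale rib resection. The control library was made from Sox9:CreER;R26:tdT mice carrying 1 floxed and 1 intact Smo allele (Smof/+), and the Smo cKO (below, cKO) library from Sox9:CreER;R26:tdT;Smof/f mice. Values given in pairs are control first and cKO second. Both groups carried the tamoxifen-inducible Sox9:CreER driver and the tdTomato reporter and received tamoxifen before surgery, so that Smo, the membrane transducer of Hedgehog signaling, was targeted only where Sox9:CreER was active. Tissue of 3 animals was pooled for each genotype and gave 1 library, so animals cannot be told apart, no test between genotypes was possible, and every interval below covers counting error only.

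Macrophages clear red cells and free hemoglobin after bleeding. Heme is split by heme oxygenase (Hmox1) into iron, carbon monoxide and biliverdin, and the freed iron is either stored in ferritin, a shell built of heavy (Fth1) and light (Ftl1) chains, or sent out of the cell through ferroportin (Slc40a1). Cells that need iron take it up from transferrin through the transferrin receptor (Tfrc). Iron regulatory proteins tie these steps together: they bind a short RNA hairpin, the iron-responsive element, and block translation when it lies ahead of the coding sequence or protect the messenger when it lies behind it.

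The hairpin letters set apart the members that carry such an element from those that do not, and are shown because UMI counts measure messenger level and not the translation step that these sites control. The search took a C, any 5 bases, the loop CAGTGN and 5 bases able to pair with the first 5 (G with T allowed), on the sense strand of annotated UTRs. Capitals mark the loop, and 6 bases are shown on each outer side.

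Fth1, before the coding sequence, chr19:9982732-9982760, plus strand: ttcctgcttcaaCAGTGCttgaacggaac
Ftl1, before the coding sequence, chr7:45459779-45459807, minus strand: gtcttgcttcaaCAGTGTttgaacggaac
Slc40a1, before the coding sequence, chr1:45925465-45925493, minus strand: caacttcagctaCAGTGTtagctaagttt
Tfrc, after the coding sequence, chr16:32631219-32631247, plus strand: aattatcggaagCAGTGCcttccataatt
Tfrc, after the coding sequence, chr16:32631598-32631626, plus strand: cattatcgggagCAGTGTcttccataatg
Tfrc, after the coding sequence, chr16:32631663-32631691, plus strand: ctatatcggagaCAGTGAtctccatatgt
Tfrc, after the coding sequence, chr16:32631710-32631738, plus strand: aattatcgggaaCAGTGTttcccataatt

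These positions are in GRCm38 (GENCODE vM21). Fth1, Ftl1 and Slc40a1 each held 1 match in the 5′ UTR, and Tfrc held 4 matches in the 3′ UTR. The same letters occurred in the 5′ UTR of 31 of 20916 genes (0.148%) and in the 3′ UTR of 129 of 21707 genes (0.594%). No match was found in the UTRs of Hmox1, Blvrb, Cd163, Slc11a1 or Slc48a1, which says only that these letters are not in those windows.

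The control matrix held 10747 cells and 105367110 UMIs and the cKO matrix 10512 cells and 112700220 UMIs. After cells with fewer than 200 genes or 10% or more mitochondrial UMIs were left out, 10057 and 9507 cells remained, with medians of 8367 and 9092 UMIs. Cells were assigned by marker genes to 13 classes, none of which used a member gene. Levels are CPM, the UMIs of a gene among 1000000 UMIs of a class in a library. Of the macrophage gates, the Arg1 Spp1 gate is the upper end of a continuous range: 93.2% of its control cells and 94.6% of its cKO cells lay in the same expression cluster as most Mrc1 C1q cells. The Ly6c2 gate, made with monocyte markers, is not called monocyte here because 61.4% of its control cells and 60.3% of its cKO cells lay in a cluster led by the granule genes Elane, Prtn3, Ctsg and Mpo. The remaining macrophages fell mainly (59.0% and 55.3%) into a cluster led by the osteoclast genes Acp5 and Mmp9. The libraries shared 613 cell barcodes, 599 of them kept in both, and 485 of these had the same class in both libraries. In stromal cells Smo itself was at 19.3 and 12.5 CPM, a count that may come from transcript outside the deleted part and so is no check of recombination. The erythroid gate held 5 control and 86 cKO cells. Globin was higher in the cKO library in all other classes but 1, for instance 641 against 1111 CPM in Mrc1 C1q macrophages and 281 against 542 CPM in stromal cells, and endothelial cells were the exception (623 against 508 CPM). The part of this globin difference in the results below was not tested.

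Hmox1 (chr8:75093621-75100589) was highest in macrophages, and it was lower in the cKO library in most classes. In Arg1 Spp1 macrophages its level was 5082 and 3430 CPM (control and cKO), and in Mrc1 C1q macrophages 3260 and 2598 CPM. Cells of the Ly6c2 gate followed with 1267 and 943 CPM, then MHC class II cells with 750 and 882 CPM and remaining macrophages with 752 and 697 CPM. Of the MHC class II gate, 47.6% of control and 39.4% of cKO cells lay in the Pf4 macrophage cluster, and the cluster led by H2-Eb1 and H2-Aa had 322 and 314 CPM of Hmox1. These 3 lower levels of the gates were far above those of T and NK cells, which had 39.3 and 27.8 CPM from 4 and 8 UMIs. Neutrophils had 437 and 243 CPM, endothelial cells 411 and 455 CPM, stromal cells 308 and 212 CPM, osteoclasts 223 and 194 CPM, and muscle cells 60.0 and 39.2 CPM. In the control, remaining macrophages and MHC class II cells had overlapping intervals (717 to 789 and 702 to 800 CPM), as did neutrophils and endothelial cells (358 to 529 and 363 to 465 CPM), so the order within those pairs is not resolved.

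**Figure D1:**
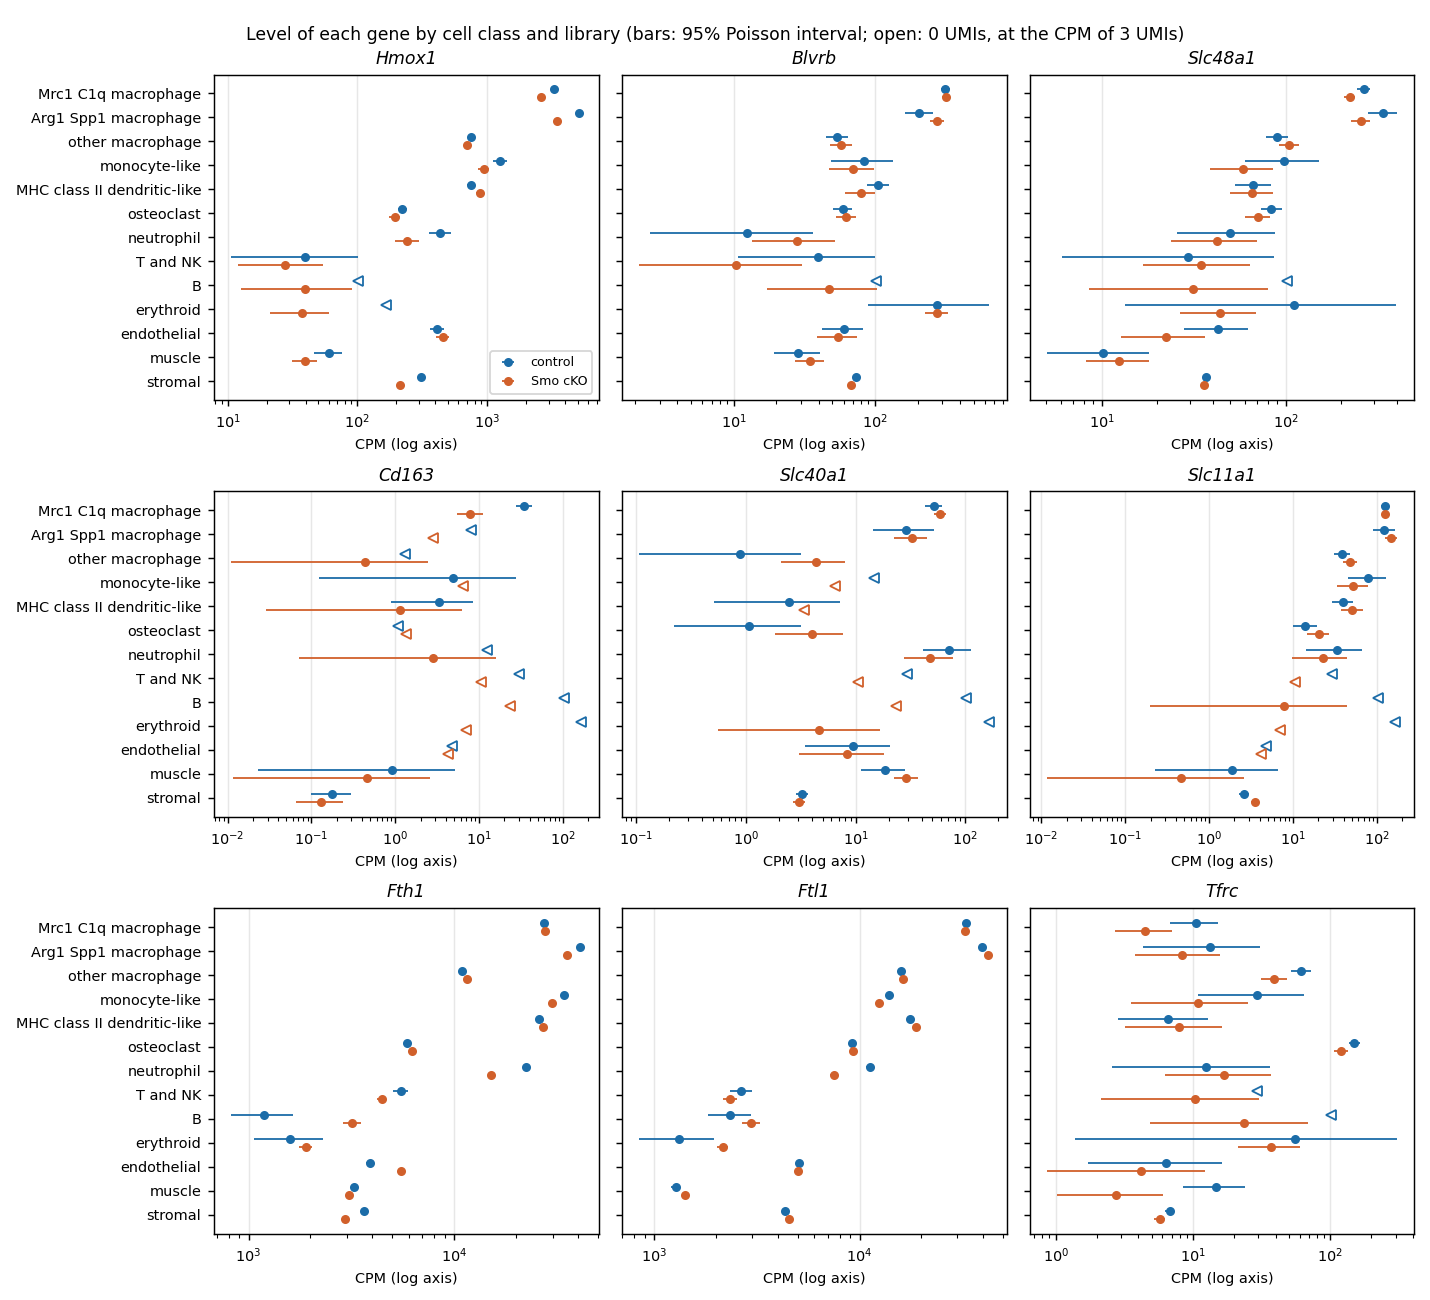
Level of each gene in CPM (log axis) by cell class, with control in blue and cKO in orange. Points are summed UMIs of a class, bars are 95% Poisson intervals and open triangles mark classes with 0 UMIs, drawn at the CPM that 3 UMIs would give. Hmox1, Ftl1 and Slc11a1 are highest in the Mrc1 C1q and Arg1 Spp1 macrophages and Fth1 in the Arg1 Spp1 macrophages, followed by Ly6c2 (plotted as monocyte-like) cells (34012 and 29769 CPM), while Tfrc is highest in osteoclasts (150 and 120 CPM).

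The cKO to control ratio of Hmox1 was below 1 in 9 and above 1 in 2 of the 11 classes with UMIs in both libraries, and its counting interval excluded equality in 8 and 1 of them. On the log2 scale the ratio was -0.54 (95% interval -0.57 to -0.51) in stromal cells, -0.33 (-0.37 to -0.29) in Mrc1 C1q macrophages and -0.57 (-0.65 to -0.49) in Arg1 Spp1 macrophages. Over all cells of the Pf4 cluster, which held most cells of both macrophage gates, Hmox1 was at 3372 and 3121 CPM. This was a log2 ratio of -0.11 (-0.15 to -0.08). That cluster also held cells of other gates, and its mix differed between libraries. It had 124 and 313 Arg1 Spp1 cells and 207 and 97 MHC class II cells. Its ratio is therefore not that of either macrophage gate inside the cluster, which was not computed. In the Apoe C1qa cluster, which held 10.3% of control and 21.1% of cKO Mrc1 C1q macrophages, Hmox1 was at 1329 and 916 CPM, or -0.54 (-0.69 to -0.38). The part of this shift between clusters in the ratio of the gate was not tested. In neutrophils the ratio was -0.85 (-1.28 to -0.42), where the median over all 2043 genes tested was itself -0.21. The class above equality was the MHC class II cells, with 0.23 (0.09 to 0.37), but its sign turned under 2 of 14 alternative settings, to -0.13 when cells were thinned to 1000 UMIs and to -0.04 (-0.33 to 0.25) in the MHC class II cluster that replaced the gate. In stromal, Mrc1 C1q, Arg1 Spp1 and Ly6c2 cells the ratio stayed below 0 under each of the 13 or 14 alternative settings computed. Some of these settings changed only the rule for a call or the cells of other classes, and so could not move the ratio. None of these differences reached 2-fold. Without the cells whose barcode occurred in both libraries, the log2 ratio was -0.52 in stromal, -0.33 in Mrc1 C1q and -0.66 in Arg1 Spp1 cells.

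A call in what follows means at least 2-fold between 2 levels with at least 50 CPM in the higher of them. Over the 6 main classes (stromal, Mrc1 C1q, Arg1 Spp1, MHC class II, Ly6c2 and erythroid), 1 member in 1 class was called between the libraries, against 11.9% of all gene and class pairs tested. That call was Slc48a1 in erythroid cells, with 2 UMIs in the 5 control cells and 19 UMIs in the 86 cKO cells. Its log2 ratio of -1.32 had an interval from -3.37 to 1.83, and 73% of all genes tested in that class were called, with a median over all genes of -0.87. In the other 5 main classes no member was called, beside 0.896% of genes called in stromal cells, 2.12% in Mrc1 C1q macrophages, 4.55% in Arg1 Spp1 macrophages, 3.15% in MHC class II cells and 8.51% in Ly6c2 cells.

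**Figure D2:**
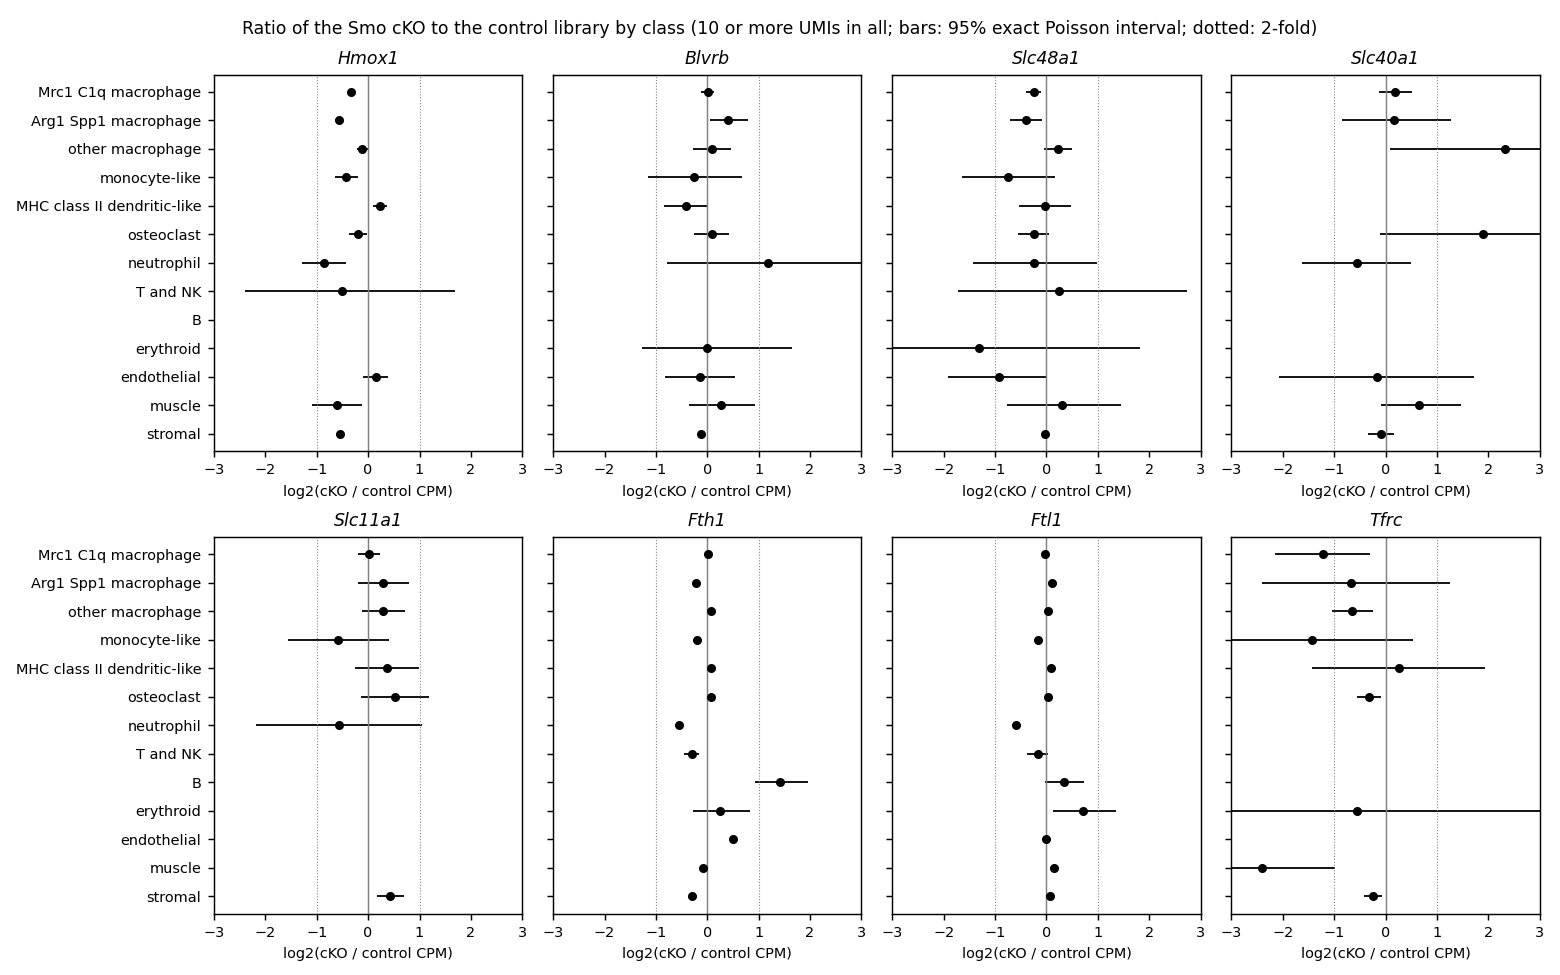
Log2 ratio of the cKO to the control CPM by class for each gene with 10 or more UMIs in all, Cd163 left out for its low counts. Points are ratios, bars 95% exact Poisson intervals, and dotted lines mark 2-fold. Bars are clipped at the axis limits of -3 and 3. Hmox1 lies left of 0 in 9 of 11 classes, whereas Ftl1 stays between -0.59 and 0.71.

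Single cells showed how uneven Hmox1 was. Cells with at least 1000 UMIs were thinned to 1000 UMIs and the others left out. This left out 66 of 955 and 55 of 1243 Mrc1 C1q macrophages, and 21 of 133 and 22 of 331 Arg1 Spp1 macrophages. After thinning, 64.5% of control and 55.1% of cKO Mrc1 C1q macrophages had at least 1 Hmox1 UMI, and 81.3% and 68.9% of Arg1 Spp1 macrophages did. In T and NK cells at the same thinned depth the shares were 6.52% and 2.21%. Unthinned, Mrc1 C1q macrophages (median 2358 and 3109 UMIs per cell) had shares of 79.4% and 76.1%, and T and NK cells (1406.5 and 1638 UMIs) 6.67% and 5.37%.

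The highest cells carried much of the message. In Mrc1 C1q macrophages the 10% of cells with the most Hmox1 held 46.8% and 48.2% of its thinned UMIs. Cells with 6 or more thinned UMIs made up 20.5% and 17.8% of Mrc1 C1q macrophages and 32.1% and 26.2% of Arg1 Spp1 macrophages. In stromal cells such cells made up 0.196% and 0.137%, and the share with any UMI was 23.8% against 16.4%.

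**Figure D3:**
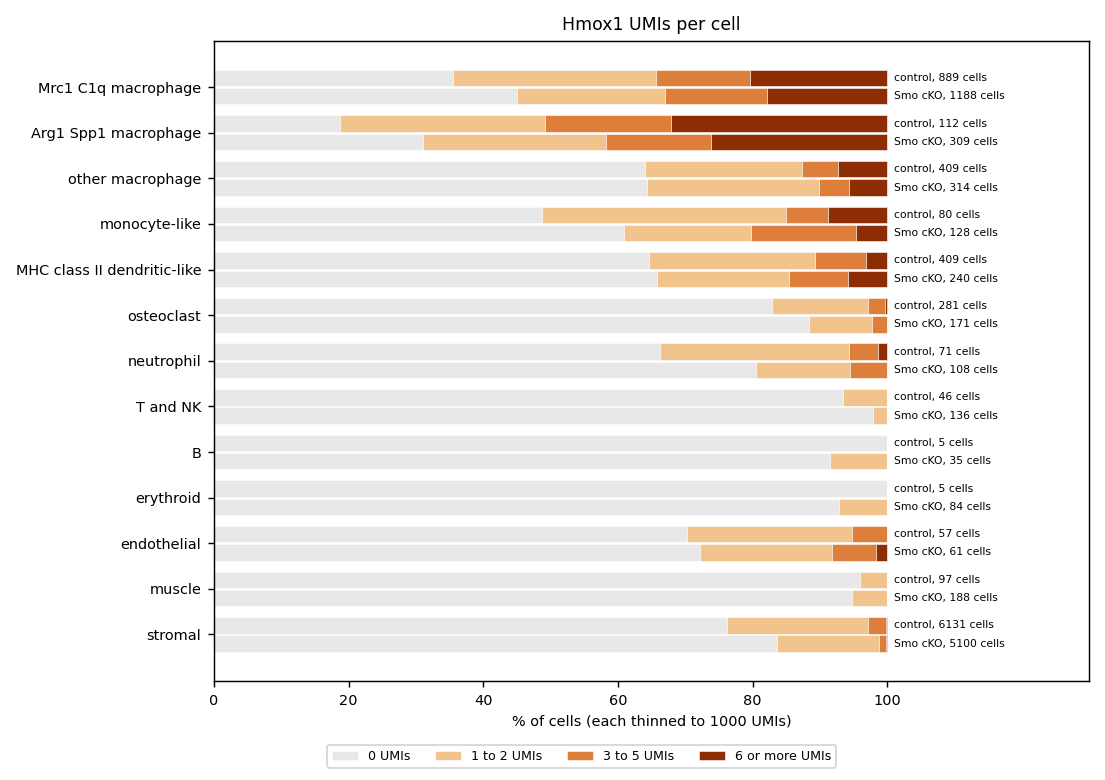
Share of cells (%) by Hmox1 UMIs per cell after thinning to 1000 UMIs, by class, with the control bar above the cKO bar and the number of cells beside each. Cells with fewer than 1000 UMIs are left out. Cells with 6 or more UMIs (darkest) are most frequent in Arg1 Spp1 macrophages (32.1% and 26.2%) and Mrc1 C1q macrophages (20.5% and 17.8%).

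Stromal cells made up most of the callus, so they held 58.6% of all Hmox1 UMIs of kept control cells and 43.9% of those of kept cKO cells, despite their lower level. Stromal Hmox1 was 13.7% of the pooled macrophage level in the control and 10.2% in the cKO library, where the mix of macrophage gates differed. For 18 macrophage marker genes the same share had a median of 0.635% (range 0.355% to 8.27%) and 0.680% (0.391% to 9.26%). Stromal Hmox1 thus lay above the range of these markers in both libraries.

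The lower Hmox1 level of the cKO library was present inside most stromal clusters. Among 10 stromal clusters with at least 50 cells of each library, Hmox1 was lower in the cKO library in 8, with intervals excluding equality in 7, and higher with an interval excluding equality in 1. The median log2 ratio over clusters was -0.57, from -1.19 to 0.33. The Eln Sfrp4 cluster went from 557 to 244 CPM and the Saa3 Hp cluster from 281 to 129 CPM, whereas the Cxcl9 Gzme cluster, with 179 control and 861 cKO cells, went from 278 to 326 CPM. Leaving out 93 control and 85 cKO stromal cells that lay in clusters led by macrophage or mural genes gave a stromal log2 ratio of -0.54.

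**Figure D4:**
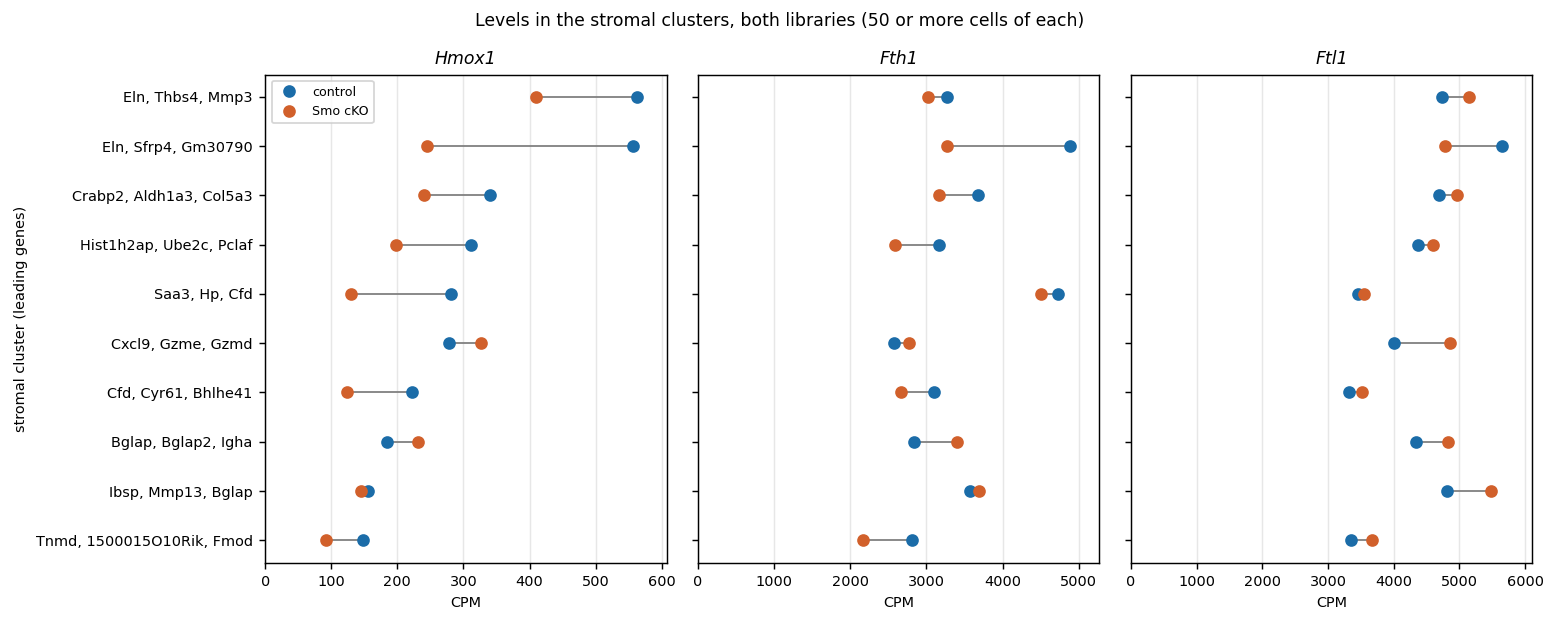
Levels (CPM) of Hmox1, Fth1 and Ftl1 in 10 stromal clusters named by their leading genes, with control in blue, cKO in orange and a line joining the libraries. Hmox1 is lower in the cKO library in 8 clusters and Fth1 in 7, while Ftl1 is lower in 1.

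Blvrb (chr7:27447978-27466144) encodes biliverdin reductase B, which acts on heme breakdown products and flavins. Mrc1 C1q macrophages had 314 and 316 CPM, and Arg1 Spp1 macrophages 206 and 274 CPM. Stromal cells had 72.9 and 67.4 CPM, MHC class II cells 105 and 79.2 CPM, and T and NK cells 39.3 and 10.4 CPM from 4 and 3 UMIs. Over the pooled macrophage gates, whose mix differed between libraries, the level was 2.57-fold and 3.31-fold the stromal level. Between the libraries the log2 ratio was 0.01 (-0.12 to 0.14) in Mrc1 C1q macrophages and 0.41 (0.05 to 0.79) in Arg1 Spp1 macrophages.

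In erythroid cells Blvrb was at 275 and 274 CPM (5 and 118 UMIs), and globin made up 80.1% and 69.2% of the UMIs of these cells. Relative to non-globin UMIs the levels were 1379 and 888 CPM. Blvrb was the 1 member called higher in erythroid than in stromal cells in both libraries, against 1.35% of genes tested, at 3.77-fold and 4.06-fold. The call was lost when clusters replaced the gates (60.1 and 111 CPM in the globin cluster) and when cells of more than 1 lineage were kept. Tfrc, at 8.13-fold and 6.50-fold from 1 and 16 UMIs, was not eligible for a call. Hmox1 and Ftl1 were called lower there, as were 80.3% of genes tested. Hmox1 had 0 UMIs in the 5 control cells, which allows up to 165 CPM at 3 UMIs, and 37.1 CPM in the 86 cKO cells.

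Slc48a1 (chr15:97778520-97792692) encodes HRG1, which carries heme out of the phagolysosome. Its level was 264 and 222 CPM in Mrc1 C1q macrophages and 336 and 255 CPM in Arg1 Spp1 macrophages. Remaining macrophages had 89.6 and 104 CPM, osteoclasts 83.4 and 70.2 CPM, and stromal cells 36.8 and 35.9 CPM, close to the 29.5 and 34.8 CPM of T and NK cells (3 and 10 UMIs). The log2 ratio between libraries was -0.25 (-0.40 to -0.11) in Mrc1 C1q macrophages and -0.40 (-0.71 to -0.09) in Arg1 Spp1 macrophages. Over all cells of the Pf4 cluster, whose mix of gates differed between libraries, the ratio was -0.02 (-0.15 to 0.11). Hdac7 overlaps the gene on the other strand.

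Cd163 (chr6:124304656-124330527), the scavenger receptor for haptoglobin-hemoglobin complexes, was rare, and Mrc1 C1q macrophages held 68.8% and 50.8% of its UMIs. There it had 86 UMIs (34.6 CPM, 27.6 to 42.7) in control cells and 33 UMIs (7.82 CPM, 5.38 to 10.98) in cKO cells. Arg1 Spp1 macrophages, osteoclasts, T and NK cells and endothelial cells had 0 UMIs in both libraries. Stromal cells, with far more UMIs in all, had 15 and 11 Cd163 UMIs, and all kept cells 125 and 65.

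The Cd163 level of Mrc1 C1q macrophages was 4.42-fold higher in the control library, a log2 ratio of -2.14 (-2.77 to -1.55). It ran from -2.27 to -1.49 over 14 settings, some of which could not move it. Since neither level reached 50 CPM it was not eligible for a call. The UMIs came from 59 of 955 control and 23 of 1243 cKO cells. The difference was present in both clusters that held most of these macrophages, with 76 UMIs in 1418 control cells against 31 in 1590 cKO cells of the Pf4 cluster and 19 UMIs in 99 against 5 in 286 cells of the Apoe C1qa cluster. In a further cluster led by F13a1 and Pf4, there were 14 UMIs in 283 control and 13 in 239 cKO cells, a log2 ratio of -0.09 (-1.30 to 1.11). Among the 12 genes that defined the gate, 7 were higher and 5 lower in the cKO library, with log2 ratios from -0.85 (Lyve1) to 1.18 (Ccl12) and a median of 0.03, and Mrc1 went from 414 to 253 CPM. Whether a change in the kinds of macrophage inside the gate had a part in the Cd163 difference was not tested.

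Cells with a Cd163 UMI also had more Mrc1, Cbr2, F13a1, Folr2, Lyve1 and Ccl8, the genes of the gate that were compared. Their medians were 2449 and 2326 UMIs, against 2352 and 3120.5 UMIs in cells without a Cd163 UMI. Cbr2 was at 257 CPM in Cd163-detected against 61.4 CPM in other control cells of the gate, and at 281 against 69.5 CPM in the cKO library. Hmox1 was at 2852 (2596 to 3126) against 3288 (3215 to 3363) CPM in the control and at 3955 (3483 to 4474) against 2578 (2529 to 2627) CPM in the cKO library, so the direction differed between libraries. Slc40a1 was at 50.1 against 51.5 CPM and at 46.9 against 58.7 CPM, with 8 and 3 UMIs in the Cd163-detected cells.

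Slc40a1 (chr1:45908068-45926523), the ferroportin gene, followed the Mrc1 C1q macrophages among mononuclear cells. Its level there was 51.4 and 58.5 CPM (128 and 247 UMIs), and 29.1 and 32.4 CPM in Arg1 Spp1 macrophages. Remaining macrophages had 0.882 and 4.40 CPM, MHC class II cells 2.46 and 0 CPM, and cells of the Ly6c2 gate 0 UMIs in both libraries. The count of 0 in cKO MHC class II cells allows up to 3.39 CPM at 3 UMIs.

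Outside the macrophages, Slc40a1 was found in neutrophils at 70.8 and 47.97 CPM (17 UMIs in each library) and in muscle cells at 18.5 and 29.1 CPM. Stromal cells had 3.26 and 3.06 CPM. The muscle level was 5.66-fold and 9.51-fold the stromal level, below the 50 CPM needed for a call. Between the libraries the log2 ratio in Mrc1 C1q macrophages was 0.19, with an interval from -0.13 to 0.51.

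Slc11a1 (chr1:74375195-74386062) encodes NRAMP1, which moves iron and manganese out of the phagosome. It was at 124 and 126 CPM in Mrc1 C1q macrophages, 122 and 148 CPM in Arg1 Spp1 macrophages, and 78.6 and 52.0 CPM in cells of the Ly6c2 gate. It was the called member with the steepest step between macrophages and stroma, at 33.1-fold and 29.1-fold. Stromal Slc11a1 was 2.60 and 3.51 CPM, or 3.02% and 3.43% of the macrophage level, which lies inside the range of the 18 macrophage markers and is therefore not read as stromal expression. T and NK, endothelial and erythroid cells had 0 UMIs in both libraries.

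Ferritin was the most abundant part of the set. Fth1 (chr19:9980598-9985098) reached 40706 and 35147 CPM in Arg1 Spp1 macrophages, 34012 and 29769 CPM in cells of the Ly6c2 gate, and 27316 and 27600 CPM in Mrc1 C1q macrophages. Ftl1 (chr7:45457944-45459884) was at 39452 and 42380 CPM in Arg1 Spp1 macrophages and at 33100 and 32587 CPM in Mrc1 C1q macrophages. The annotation names 14 other genes Fth or Ftl, 7 of them pseudogenes, and 7 are in the feature list. How alike their sequences are was not measured, and reads could be split with any close copy, so ferritin levels are uncertain to that extent. The listed gene Ftl1-ps1 had 1600 and 2570 UMIs in Mrc1 C1q macrophages, against 82364 and 137537 for Ftl1.

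Both chains together took a share of the non-globin UMIs that separated the classes. This share was 8.02% and 7.76% in Arg1 Spp1 macrophages and 6.05% and 6.03% in Mrc1 C1q macrophages. It was 4.79% and 4.23% in Ly6c2 cells, 4.34% and 4.58% in MHC class II cells, and 1.51% and 1.56% in osteoclasts. Stromal cells had 0.797% and 0.748%, and muscle cells 0.451% and 0.448%.

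The balance of the chains differed between classes more than between libraries. Fth1 made up 71.0% and 70.5% of ferritin UMIs in Ly6c2 cells, 66.5% and 66.9% in neutrophils, 67.4% and 65.4% in T and NK cells and 71.8% and 68.4% in muscle cells. It made up 59.2% and 58.9% in MHC class II cells, 45.2% and 45.9% in Mrc1 C1q macrophages and 39.1% and 40.0% in osteoclasts. The libraries differed most among classes with over 50 cells in endothelial cells (43.3%, 42.03 to 44.6, against 52.4%, 51.2 to 53.5), stromal cells (45.5%, 45.4 to 45.7, against 39.3%, 39.2 to 39.4) and Arg1 Spp1 macrophages (50.8%, 50.2 to 51.3, against 45.3%, 45.0 to 45.7).

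**Figure D5:**
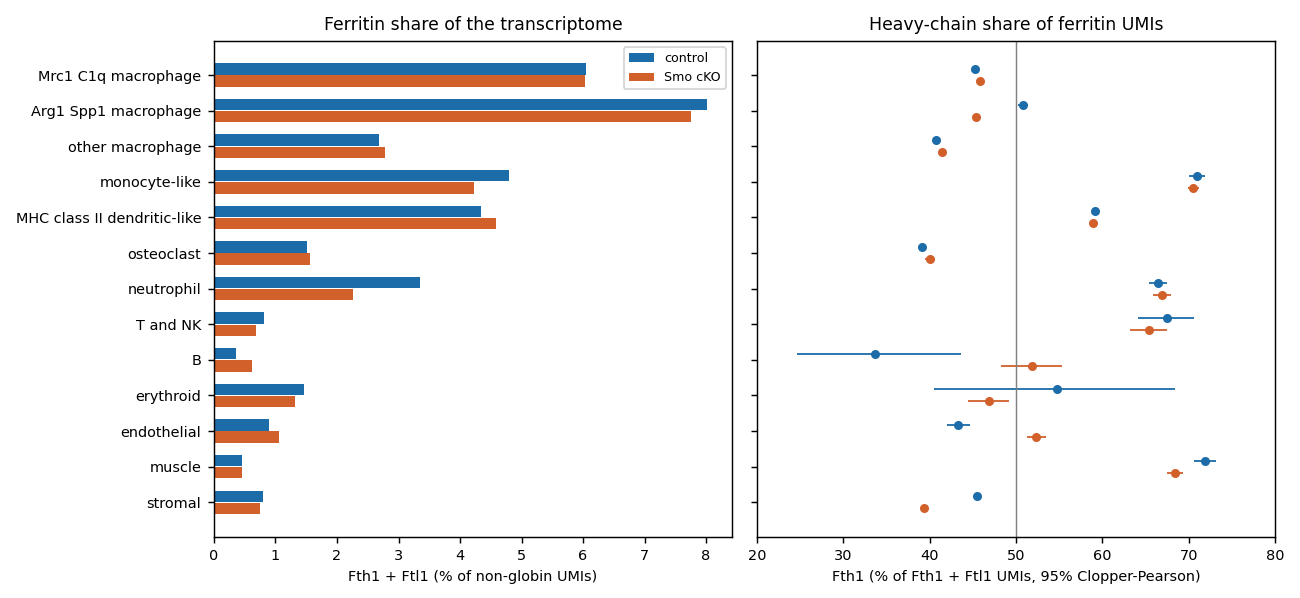
Left, Fth1 and Ftl1 UMIs together as % of non-globin UMIs by class (bars from 0). Right, Fth1 as % of Fth1 and Ftl1 UMIs with 95% Clopper-Pearson intervals, control in blue and cKO in orange. Ferritin is highest in Arg1 Spp1 macrophages (8.02% and 7.76%), and the heavy-chain share is highest in Ly6c2 (plotted as monocyte-like) cells, neutrophils, T and NK cells and muscle cells (65.4% to 71.8%).

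In stroma the chains moved apart. Stromal Fth1 was at 3627 and 2938 CPM, a log2 ratio of -0.30 (-0.31 to -0.30), and Ftl1 at 4339 and 4538 CPM, 0.06 (0.06 to 0.07), where the median over all genes tested was 0.05. Of the 10 stromal clusters, Fth1 was lower in the cKO library in 7, each with an interval excluding equality, and Ftl1 in 1. In T and NK cells, Fth1 was at 5477 and 4429 CPM, so that stromal Fth1 lay below the level of the lymphocytes in both libraries. In B cells, with 8 control and 39 cKO cells, Fth1 was called higher in the cKO library (1187 and 3180 CPM), as were 27.4% of genes tested.

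Tfrc (chr16:32608920-32632794) was arranged differently from ferritin. It was highest in osteoclasts, with 150 and 120 CPM (418 and 269 UMIs). Remaining macrophages, of which 59.0% and 55.3% lay in the osteoclast cluster, had 61.3 and 39.1 CPM. Mrc1 C1q macrophages had 10.4 and 4.50 CPM, Arg1 Spp1 macrophages 13.2 and 8.34 CPM, and stromal cells 6.76 and 5.72 CPM.

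Tfrc was lower in the cKO library in 8 of the 9 classes with at least 10 UMIs, with intervals excluding equality in 5. The log2 ratio was -0.32 (-0.55 to -0.10) in osteoclasts and -1.21 (-2.15 to -0.31) in Mrc1 C1q macrophages, the latter from 26 and 19 UMIs. Erythroid cells, which load iron for hemoglobin, had 1 UMI in 5 control cells and 16 UMIs in 86 cKO cells, or 55.0 (1.39 to 306) and 37.1 (21.2 to 60.3) CPM.

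Set side by side, the classes placed the members in a few patterns. From macrophages (Mrc1 C1q, Arg1 Spp1, remaining and Ly6c2 cells together) to stroma, 6 members were called higher in macrophages in both libraries, all 6 that reached 50 CPM, beside 15.9% of genes tested: Hmox1, Blvrb, Fth1, Ftl1, Slc11a1 and Slc48a1. The members were chosen with earlier results of these data known, so this count is no test of the set. For Hmox1 the steps were 7.30-fold and 9.80-fold, for Fth1 5.94-fold and 8.24-fold and for Ftl1 5.88-fold and 6.20-fold. The mix of the macrophage pool differed between libraries, with 427 and 333 remaining macrophages beside 955 and 1243 Mrc1 C1q cells. Pooled Fth1 was at 21558 and 24193 CPM, although it was lower in cKO Arg1 Spp1 and Ly6c2 cells. A difference between the 2 steps of a gene is therefore not read as a shift inside a macrophage gate. Slc40a1 (8.10-fold and 11.9-fold), Tfrc (4.88-fold and 2.66-fold) and Cd163 (92.0-fold and 32.1-fold) did not reach 50 CPM in both libraries and could not be called. For Tfrc, 139 of 176 and 89 of 122 macrophage UMIs came from the remaining macrophages, and Mrc1 C1q macrophages alone had 10.4 and 4.50 CPM against 6.76 and 5.72 CPM in stroma. Of all genes tested, 20.2% were called lower in macrophages.

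Between Mrc1 C1q and Arg1 Spp1 macrophages, none of 7 members tested was called in either direction, where 2.56% of genes were called higher and 1.13% lower in Mrc1 C1q cells. The log2 ratio of Mrc1 C1q to Arg1 Spp1 cells was -0.64 and -0.40 for Hmox1 and -0.58 and -0.35 for Fth1. It was 0.61 and 0.20 for Blvrb, with both intervals above 0. Cd163 was the member with UMIs on 1 side only, in Mrc1 C1q cells.

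Osteoclasts were next set against macrophages. Tfrc was called higher in osteoclasts (4.56-fold and 7.93-fold, beside 9.85% of genes), and 6 members were called lower (beside 14.2% of genes), Hmox1 among them with log2 ratios of -3.34 and -3.42. The macrophage side included the remaining macrophages, which lay mainly in the osteoclast cluster. They held 139 of its 176 and 89 of its 122 Tfrc UMIs, so osteoclasts were partly set against cells of their own cluster. In MHC class II cells 3 members were called lower than in macrophages (Hmox1, Slc11a1 and Slc48a1, beside 3.81% of genes), while Fth1 had log2 ratios of 0.25 and 0.16. Against Mrc1 C1q macrophages alone, 5 members were called lower in MHC class II cells (beside 6.3% of genes), Blvrb and Slc40a1 joining those 3. Neutrophils had 5 members called lower than macrophages (beside 23.2% of genes), and muscle had 2 called lower than stroma, Hmox1 and Ftl1 (beside 26.5%).

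Cells that passed both the macrophage and the erythroid gate, 18 control and 27 cKO cells, were kept out of the classes, since a macrophage holding a red cell and a droplet with 2 cells cannot be told apart in them. Globin made up 37.5% and 26.5% of their UMIs. Per non-globin UMI, Hmox1 was at 1010 (750 to 1332) and 1930 (1667 to 2223) CPM. Cells of the macrophage gate alone, without MHC class II cells and osteoclasts, had 2249 and 2079 CPM. Those 2 classes, lower in Hmox1, were not taken out of the cells that passed both gates. The 2 sets are therefore unlike, and their difference is not read as an effect of globin.

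The wider pathway was counted by list. Heme synthesis had no gene of 9 at 50 CPM in stroma or in the Mrc1 C1q, Arg1 Spp1 and MHC class II gates. In erythroid cells Alas2, the first and rate-limiting enzyme of erythroid heme synthesis, was at 990 and 1086 CPM, against 0.319 and 0.995 CPM in stroma. Alas2 is also a marker of the erythroid gate. With Fech, it made up the 2 of 2 tested list genes called higher than in stroma in both libraries, beside 1.35% of genes. Slc25a37, mitoferrin, was also called higher in erythroid cells, at 220 and 202 CPM against 13.4 and 13.3 CPM.

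Among genes of heme breakdown and its regulators, 2 of 7 tested were called higher in macrophages than in stroma, beside 15.9% of genes. They were Blvra (biliverdin reductase A) and Gclm (a subunit of the glutathione synthesis enzyme). The list median was 0.59 and 0.92 on the log2 scale, where all genes tested had -0.03 and -0.17. Gclm was at 129 and 125 CPM in macrophages against 40.4 and 32.3 CPM in stroma. Of the iron uptake list, Trf (transferrin) was called higher in macrophages (95.6 and 117 CPM against 2.68 and 5.62 CPM) and Slc39a14 (the ZIP14 metal importer) lower (32.8 and 33.4 CPM against 147 and 121.99 CPM). Of all genes tested, 15.9% were called higher and 20.2% lower there. Trf and Hfe (a regulator of iron sensing) were called higher in Mrc1 C1q than in Arg1 Spp1 macrophages, beside 2.56% of genes. Trf was at 171 and 192 CPM against 63.5 and 58.4 CPM.

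Between the libraries, 2 genes of these lists other than globins were called in the main classes, erythroid cells left aside, where the control had 5 cells. Of 4 globins, 2 were called higher in cKO MHC class II cells and 2 in cKO Ly6c2 cells, beside 2.78% and 4.39% of genes called higher there. Hp, the plasma protein haptoglobin that binds free hemoglobin, was called lower in cKO stroma, at 119 and 21.4 CPM (10095 and 1783 UMIs), a log2 ratio of -2.48 (-2.55 to -2.41), beside 0.156% of genes called lower there. It was lower in all of 10 stromal clusters with at least 50 cells of each library, with log2 ratios from -2.82 to -0.90. The control level was only 17.6 CPM in the Ibsp Mmp13, 19.7 CPM in the Cxcl9 Gzme and 23.9 CPM in the Eln Thbs4 cluster. Outside stroma, Mrc1 C1q macrophages had 20.5 and 11.8 CPM and MHC class II cells 14.8 and 22.6 CPM. T and NK cells had 19.7 and 3.48 CPM (2 and 1 UMIs). Whether Hp in the low clusters was their own transcript was not tested. In the Saa3 Hp cluster, which its own level helped to define and which had 1004 control and 120 cKO cells, Hp went from 491 to 194 CPM. Neutrophils held the highest level, and there Hp was at 783 and 1335 CPM, the other direction. Cells of the Ly6c2 gate came next, above stroma, with 349 (272 to 440) and 419 (362 to 482) CPM, intervals that overlap. Ncoa4, the receptor that brings ferritin to degradation, was called lower in Arg1 Spp1 macrophages (79.4 and 33.4 CPM, from 30 and 36 UMIs), beside 2.16% of genes called lower.

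For each member, the genes with the most similar profile over the 26 class and library points were taken from 5975 candidates, by Pearson's r on log2(CPM + 10). The points share libraries and the r values are descriptions. Hmox1 was most like Nampt (r = 0.96), Plekho2 and Arl8a (both 0.95). Ftl1 was most like Ftl1-ps1 (0.98), which may share its reads, then Sirpa and Fnip2. Fth1 was most like Rnf130, Rab20 and Lilr4b (0.97 to 0.96), and Slc11a1 like Msr1, Clec4n and C3ar1 (0.97 to 0.96).

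The other members had looser neighbours. Slc48a1 was most like Grn (0.88), Tfrc like Cyp2s1, Slc9b2 and Ctsk (0.80 to 0.79), Blvrb like Gclm (0.76) and Slc40a1 like Arhgap19 (0.77). Cd163 was most like Ccl8, Cbr2 and Mrc1 (0.79 to 0.72), all of which are markers of the gate that held it. Among the members themselves r was highest between Ftl1 and Slc11a1 (0.94) and between Hmox1 and Ftl1 (0.93), and Tfrc had r from -0.25 to 0.30 with the other members.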

How the data were processed

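Cells of repair calluses were dissociated with collagenase II and dispase, dead cells were removed, and libraries were made on the 10x Chromium platform and sequenced on an Illumina NextSeq. The authors deposited 1 raw UMI count matrix per genotype, made with Cell Ranger 3.0.2 on mm10 per the labels. No normalization had been applied to the counts.

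Cells with at least 200 genes and under 10% mitochondrial UMIs were kept. The 2000-gene limit in the study's methods was an alternative, since 58.0% and 59.4% of kept cells exceed it. A class required 3 detected markers and a summed marker level above a cut (for instance 10000 CPM stromal, 1000 CPM macrophage, 30000 CPM erythroid). Cells passing gates of more than 1 lineage (503 and 574) were left out, which was the treatment of doublets, and no caller was run. Cuts were set after the distributions were seen, and the members and lists were chosen with earlier results of these data known.

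UMIs were summed by class. Ratios carry exact Poisson and shares Clopper-Pearson 95% intervals. With 1 library per genotype no test was made. All 9 members are named throughout; of the pathway lists, the 3 genes with the largest ratio among those called in each contrast and any at 500 CPM or more are named. Calculations used Python 3.11.15, numpy 2.4.6, scipy 1.17.1 and pandas 2.3.3, and clusters leidenalg 0.10.2 on 2000 variable genes without the members. The fold calls were tested on simulated data.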

Additional observations from a re-analysis of the deposited data

Results flagged for a closer look

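In 4 members the ratio of the cKO to the control library lay above 0 in 1 main class and below 0 in another, each with an interval excluding 0. How many of all genes meet this rule was not counted. The intervals cover counting error only, so abundant genes such as Ftl1 exclude 0 at a log2 ratio of 0.10. The difference between the classes was not tested, since each class has 1 library per genotype. For Hmox1 the log2 ratios were 0.23 in MHC class II cells and -0.57 in Arg1 Spp1 macrophages, 0.80 apart. For Blvrb they were 0.41 in Arg1 Spp1 macrophages and -0.11 in stromal cells, 0.52 apart. For Fth1 they were 0.07 in MHC class II cells and -0.30 in stromal cells, 0.38 apart. The MHC class II value is close to the median of that class over all genes (0.06), and it turned to -0.09 (-0.13 to -0.06) when clusters replaced the gates and to -0.01 with globin, mitochondrial and ribosomal protein genes out of the totals. The Hmox1 value of the MHC class II cells also turned below 0 under 2 of 14 alternative settings, some of which could not move it. For Ftl1 they were 0.10 in Arg1 Spp1 macrophages and -0.16 in cells of the Ly6c2 gate, 0.26 apart.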

How the results depend on the processing

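No paired analysis was possible because each genotype has 1 library. The 1 member called between the libraries became 3 with 4 markers required, 2 with cells of more than 1 lineage kept, 0 with clusters in place of gates, 4 at a minimum of 20 CPM, 7 at a minimum of 3 UMIs, 4 when scaled by the median gene ratio, 3 with globin, mitochondrial and ribosomal protein genes out of the totals, 4 with cells thinned to 1000 UMIs, and 0 without the erythroid class, an alternative chosen after seeing the data. The count of 0 between the Mrc1 C1q and Arg1 Spp1 gates became 1 at a minimum of 3 UMIs, and clusters gave no value for it because no cluster was named Arg1 Spp1. The 1 member called higher in erythroid than in stromal cells became 0 with cells of more than 1 lineage kept and 0 with clusters, 2 at 20 CPM, 2 at 3 UMIs, 3 when scaled by the median ratio and 4 with the shortened totals. The 6 members called higher in macrophages stayed within 1.5 times of that count under the alternatives run. The share of all genes called was not computed under the alternatives, so these counts are not read as results about the members. In the main setting that share was 73% between the libraries in erythroid cells. Of 601 alternative values of single members, 506 moved by less than the counting interval of the main value. In 50 the sign changed, in none of them away from a called value, and only 1 main value was called. The settings at 20 CPM, at 3 UMIs and without the erythroid class changed only which calls were counted. Leaving out stromal cells in clusters led by other marker genes changed stromal values only. The 506 therefore include values that could not move. Leaving out barcodes found in both libraries, and stromal cells in clusters led by other marker genes, were also chosen after seeing the data. With 1 library per genotype, genotype, animals, dissection and library preparation cannot be told apart, and levels under about 10 CPM in classes of few cells rest on a few UMIs.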

Other observations

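Cells left out for 10% or more mitochondrial UMIs were gated in the same way. The 27 control cells of the macrophage gates among them had 3900 CPM of Hmox1 and the 25 cKO cells 1510 CPM, from 109 and 45 UMIs. The 203 control and 315 cKO cells of the stromal gate had 293 and 169 CPM. Fth1 was at 14062 and 11305 CPM in the macrophage-gated and at 1688 and 1553 CPM in the stromal-gated cells. Cells that passed both the stromal and the erythroid gate, 54 control and 53 cKO cells, had 345 (296 to 400) and 139 (112 to 169) CPM of Hmox1 per non-globin UMI, against 308 and 212 CPM in cells of the stromal gate alone.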
